A study of Mus musculus with 24 samples.

Results

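Sterol and fatty acid synthesis was followed in sorted mouse mammary epithelium through 42 genes chosen by name. A gene was measured where a probe set carried its symbol and no other, and where it had several such probe sets, as Acaca, Fdft1, Idi1 and Me1 did, the brightest on average across the 24 arrays stood for it. In this way 40 of the 42 genes were measured, among 19937 genes in all: 16 of the sterol branch, 19 of the fatty acid branch and 5 regulators. Acat2 and Acsl3 were not analysed here.

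All mice carried Lgr5-creERT2, a Cre recombinase that tamoxifen switches on in Lgr5-expressing cells, on a mixed FVB/C57BL6 background, and were studied 4 weeks after tamoxifen. Mutant mice also carried a mutant PIK3CA transgene that the Cre activates, and control mice did not. In each of 3 independent sortings, glands of 2 to 3 estrus-synchronised mice of a genotype were pooled, and RNA of 250 cells per sample was amplified and hybridised to Affymetrix arrays. CD45-negative cells were gated as luminal (CD24 high, Sca1+ or Sca1-) or basal (CD24 low, Sca1-), and by GFP, which reports expression of Lgr5, of the transgene or of both.

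There were 8 groups of 3 arrays. These were mutant GFP+ and control GFP- luminal Sca1+ cells, mutant GFP+ and control GFP- luminal Sca1- cells, mutant and control basal GFP+ cells, and mutant and control basal GFP- cells. In the luminal groups genotype and GFP state go together and cannot be told apart. The replicates are pools from separate sortings, and gates of a genotype sorted together share a pool, which the fit does not take into account. An adjusted p sets a difference against the variation among pools. In sorted bulk RNA, fewer cells of a kind and less RNA per cell cannot be told apart either.

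Cells build both products from cytosolic acetyl-CoA. The sterol branch runs through the mevalonate pathway to squalene and, after ring closure, to cholesterol, while the fatty acid branch carboxylates acetyl-CoA, builds palmitate, and then elongates and desaturates it. The membrane-bound factors encoded by Srebf1 and Srebf2 turn on genes of both branches, Scap escorts them out of the endoplasmic reticulum when sterols are low, and Insig1 and Insig2 hold them back. Mammary alveolar cells raise lipid synthesis strongly in lactation to make milk fat, and signalling through phosphoinositide 3-kinase is known to activate this programme in other cells.

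Levels of basal genes told the basal from the luminal gates. The mean log2 level over 10 basal genes lay between 5.20 and 6.89 in the luminal arrays and between 10.36 and 10.91 in the basal arrays. Within the luminal Sca1- gate it was 6.33 to 6.89 in mutant arrays and 5.20 to 5.31 in control arrays, but not all of the list rose. Of the 10 genes, 6 lay above and 1 below control without overlap. The 3 called there were keratin genes, all higher in mutant cells: Krt5 (3.29, adjusted p = 0.000572), Krt17 (2.15, adjusted p = 0.00266) and Krt14 (2.46, adjusted p = 0.00571). Of all genes, 0.727% were called in that comparison. Ly6a, which encodes Sca1, was not analysed here. Lgr5 was lower in mutant than in control basal GFP+ cells (log2 difference -3.16, adjusted p = 7.95e-05) and Pik3ca was higher (1.09, adjusted p = 0.00435). The 3 control basal GFP+ arrays stood apart in signal. The SD over the probe sets of an array was on average 1.86 in them, the lowest of the 8 groups, against 1.97 in mutant basal GFP+ arrays. Their mean array weight, by which limma rates how closely arrays follow their group mean, was also the lowest: 0.59, against 1.45 in mutant basal GFP+ arrays.

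Promoters of 4 members are printed here because their genes carry the main patterns below: Elovl5 and Hmgcs1 were higher in mutant basal GFP+ cells, Fads2 was low in Sca1+ luminal cells, and Ebp varied most clearly among the sterol genes. Each is the 250 bases before the gene's start in RefSeq (GRCm38.p6), written 5′ to 3′ along the gene's strand. Capitals mark 3 motifs, searched on both strands: TCACNCCAC, a core of the sterol regulatory element; CCAAT (or ATTGG), the box that factor NF-Y binds; and CACGTG, an E-box. The motifs share no base in the promoters shown.
Elovl5, chr9:77917115-77917364, plus strand: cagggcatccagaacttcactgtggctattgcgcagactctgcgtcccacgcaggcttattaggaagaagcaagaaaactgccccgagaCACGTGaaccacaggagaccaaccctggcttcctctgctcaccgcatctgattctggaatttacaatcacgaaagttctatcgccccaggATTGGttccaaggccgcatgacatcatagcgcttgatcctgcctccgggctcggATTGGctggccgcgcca
Fads2, chr19:10101504-10101753, minus strand: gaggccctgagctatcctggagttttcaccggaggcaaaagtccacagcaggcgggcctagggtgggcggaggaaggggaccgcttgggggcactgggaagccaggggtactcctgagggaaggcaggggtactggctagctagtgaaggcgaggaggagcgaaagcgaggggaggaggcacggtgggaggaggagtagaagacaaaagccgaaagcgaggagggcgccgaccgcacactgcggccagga
Hmgcs1, chr13:119690101-119690350, plus strand: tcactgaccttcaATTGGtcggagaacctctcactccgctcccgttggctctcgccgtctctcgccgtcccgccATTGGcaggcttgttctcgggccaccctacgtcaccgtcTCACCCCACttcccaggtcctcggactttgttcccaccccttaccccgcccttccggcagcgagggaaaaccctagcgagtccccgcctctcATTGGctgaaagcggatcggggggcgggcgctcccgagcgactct
Ebp, chrX:8193513-8193762, minus strand: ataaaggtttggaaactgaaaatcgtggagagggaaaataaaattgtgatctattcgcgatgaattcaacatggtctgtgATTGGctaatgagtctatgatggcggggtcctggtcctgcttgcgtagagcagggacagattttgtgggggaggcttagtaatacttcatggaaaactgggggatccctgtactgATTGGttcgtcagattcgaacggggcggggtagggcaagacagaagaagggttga

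Hmgcs1 holds the sterol element motif and 3 CCAAT boxes, Ebp holds 2 CCAAT boxes, Elovl5 holds 2 CCAAT boxes and an E-box, and these letters do not occur in the Fads2 window. The RefSeq table had promoters of 32 of the 40 measured members, 43 promoters in all, each covering 250 bases before and 50 after the start. A CCAAT box occurred in 12 of 15 sterol promoters (80.0%), in 9 of 18 fatty acid promoters and in 5 of 10 promoters of the regulators, and in 37.4% of all 32851 promoters of that length. The sterol element motif occurred in 1 sterol promoter (6.67%), in none of the others, and in 1.24% of all promoters. The E-box occurred in 13.3% of sterol, 5.56% of fatty acid and 30.0% of the regulators' promoters, against 7.15% of all. Fdps, Fdft1, Sqle, Stard4, Scd1, Scd2, Fads1 and Lpl had no entry.

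Across the 8 groups, a few enzymes, most of them in the fatty acid branch, carried the differences that passed a test. In the limma F test over the groups, 6 of 19 fatty acid genes passed (Elovl5, Me1, Scd1, Fads1, Fads2 and Lpin1), with 3 of 16 sterol genes (Ebp, Sqle and Fdps) and 0 of 5 regulators (none of which had an unadjusted p under 0.05). That is 9 of 40 members, where 25.4% of all genes passed, so the members' count is near that over all genes. In 13 comparisons of group pairs, 10 of the 40 members were called at an adjusted p under 0.05 in at least 1 pair, for 25 calls in total, of which 22 fell in the fatty acid branch and 3 in the sterol branch. Over all genes, 30.8% were called in at least 1 pair, so 10 of 40 is not above that share. A dim limit was set at the median over genes of the mean log2 level, 4.66, under which a level is near the array's background. Lss, Stard4, Acss2, Acacb, Olah, Thrsp and Lpl were under it in all 8 groups, so a change in these 7 could have been missed.

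**Figure D1:**
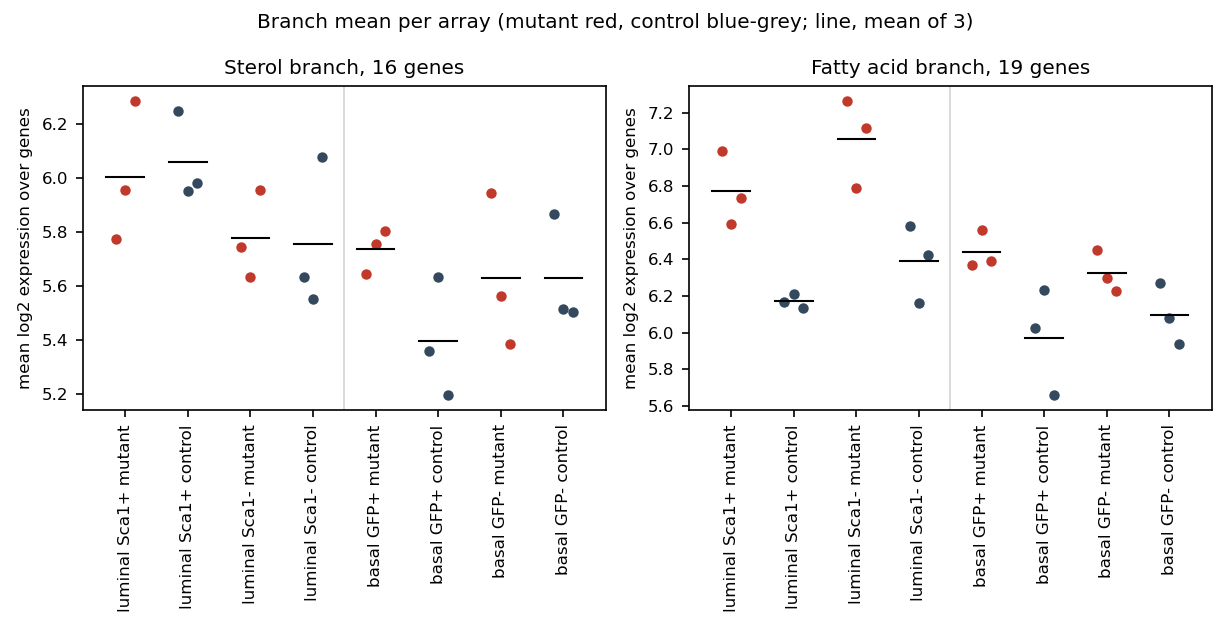
Mean log2 level over the measured genes of the sterol branch and of the fatty acid branch, for each of the 24 arrays, by sorted group (mutant red, control blue-grey, line at the mean of 3 arrays). Fatty acid means of mutant luminal and mutant basal GFP+ arrays lie above those of the matched control arrays, and sterol means overlap in the luminal groups and in basal GFP- cells. In basal GFP+ cells sterol means lie at 5.646 to 5.804 in mutant arrays, narrowly above 5.195 to 5.635 in control ones.

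Of the 5 regulators, Srebf1, Srebf2 and Scap had group means within a narrow range, and Insig1 and Insig2 ranged more widely. Srebf1, which drives mostly fatty acid genes, had group means between 6.44 and 7.02 on the log2 scale. Srebf2, which drives mostly sterol genes, had group means between 8.21 and 8.84. Scap had group means between 7.72 and 8.36, with its highest in mutant basal GFP+ cells.

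None of the regulators was called in any of the 4 comparisons of mutant with control, and 1 had an unadjusted p under 0.05, Scap in luminal Sca1- cells (0.50, adjusted p = 0.324). The log2 difference of Srebf1 in basal GFP+ cells was -0.15 (95% interval -0.62 to 0.33), and that of Srebf2 was -0.04 (-0.60 to 0.51). Insig1, itself a target of the pathway, had group means between 4.66 in control luminal Sca1+ cells and 6.87 in mutant basal GFP+ cells, and spread widely between pools, with log2 levels of 6.41, 8.29 and 5.92 in mutant basal GFP+ arrays, against 5.29, 7.45 and 4.46 in control basal GFP+ arrays. In the luminal Sca1+ gate its levels were 5.0, 6.57 and 6.01 in mutant arrays, against 4.45, 4.70 and 4.83 in control arrays. These arrays do not overlap, yet the difference of 1.20 ± 0.75 (standard error, 3 arrays per group) had an adjusted p of 0.81. Insig2 showed log2 levels of 6.44, 6.50 and 6.01 in mutant basal GFP+ arrays, against 5.72, 5.87 and 5.44 in control basal GFP+ arrays, a difference of 0.64 (adjusted p = 0.216).

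In the sterol branch, the enzyme at the entry to the pathway was the member that differed with genotype. Hmgcs1, the cytosolic HMG-CoA synthase that feeds the mevalonate pathway, had log2 levels of 7.53, 7.86 and 7.66 in mutant basal GFP+ arrays, against 6.57, 6.70 and 6.42 in control basal GFP+ arrays. All mutant arrays lay above all control arrays. The log2 difference was 1.12 ± 0.31 (standard error, 3 arrays per group), or 2.18-fold, with an adjusted p of 0.0283. It was the only one of 16 sterol genes called there, in a comparison in which 12.6% of all genes were called and 4.74% were called higher. The call ended when any array of the pair other than control array 2 was left out (differences 1.03 to 1.20, adjusted p 0.0598 to 0.0889, and 0.0276 without that array), and with quantile normalization (0.87). In basal GFP- cells Hmgcs1 levels were 7.31, 7.66 and 6.48 in mutant arrays, against 7.42, 7.40 and 6.56 in control arrays. Set against these control basal GFP- arrays, mutant basal GFP+ cells were higher by 0.56 (not called, adjusted p = 0.393), with no overlap of the arrays. The control basal GFP+ arrays stood apart in signal, as given above, and the part of this in the Hmgcs1 difference was not tested.

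No other sterol gene was called between mutant and control basal GFP+ cells. Sqle, squalene epoxidase, a rate-limiting step after squalene, had log2 levels of 8.01, 8.69 and 7.75 in mutant basal GFP+ arrays, against 6.27, 8.04 and 6.47 in control basal GFP+ arrays. The difference was 1.23 ± 0.49 (adjusted p = 0.1), and 1.78 without control array 2, where it passed the test. Ebp, the sterol isomerase that binds emopamil, had levels of 5.69, 5.06 and 5.44 in mutant arrays, against 4.71, 4.68 and 4.67 in control arrays (difference 0.71, adjusted p = 0.191). The 3 control levels of Ebp lie at the dim limit. Fdft1, squalene synthase, had a difference of 0.95 with overlapping arrays (adjusted p = 0.302). Over the 16 sterol genes the median log2 difference between mutant and control was 0.24 in basal GFP+ cells, where 11 were positive and the median of all genes was -0.10. It was -0.06 in basal GFP- cells, 0.11 in luminal Sca1- cells and -0.08 in luminal Sca1+ cells.

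In luminal cells no sterol gene was called between mutant and control, and at an unadjusted p under 0.05 there were 2 in the Sca1+ gate and 0 in the Sca1- gate. The share of all genes at that threshold is not given, so these counts cannot be set against it. In the Sca1+ gate Fdft1 stood at 7.84, 7.55 and 7.99 in mutant arrays, against 9.11, 8.79 and 8.77 in control arrays, below them without overlap (difference -1.10, adjusted p = 0.776). Hsd17b7, a ketoreductase of the late pathway, stood at 6.05, 5.07 and 6.58 in mutant Sca1+ arrays, against 4.70, 5.09 and 4.72 in control Sca1+ arrays. Its difference of 1.06 was not called (adjusted p = 0.173), and passed the test without mutant array 2 (1.48). Hmgcs1 differed by -0.35 in this gate and by -0.20 in the Sca1- gate, neither of them called.

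Sterol genes also differed between populations of a genotype. In luminal Sca1+ cells of control mice, Sqle had log2 levels of 8.30, 9.18 and 9.25, against 7.79, 5.90 and 7.09 in control basal GFP- arrays, a difference of 1.99 ± 0.49 (adjusted p = 0.00991). It was 1 of 5 members called there, where 13.1% of all genes were called. Without basal array 2, the lowest, the difference was 1.47 (adjusted p = 0.0672). In mutant mice Sqle stood at 8.49, 9.28 and 9.11 in luminal Sca1+ arrays, against 7.90, 7.34 and 8.14 in luminal Sca1- arrays, again without overlap but not called (1.16, adjusted p = 0.306).

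Fdps, farnesyl diphosphate synthase, was called between mutant luminal Sca1+ arrays, at 6.34, 6.66 and 7.12, and mutant basal GFP+ arrays, at 5.39, 5.54 and 6.23. The difference was 0.99 ± 0.28 (adjusted p = 0.0323), and it was lost without mutant basal array 1 or 2 or mutant Sca1+ array 2 or 3 (0.78 to 1.01, adjusted p 0.0759 to 0.172). Ebp ranged over the 8 groups from a mean of 7.11 ± 0.75 in control luminal Sca1+ cells to 4.69 ± 0.02 in control basal GFP+ cells (SD, n = 3), without a call in any of the 13 pairs tested, which do not include these extremes. With Hmgcs1, Sqle and Fdps called in 1 pair each, 13 of the 16 sterol genes were never called. Group means of Mvk ran from 4.97 to 5.24, of Dhcr7 from 5.02 to 5.60, of Cyp51 from 5.71 to 6.31 and of Nsdhl from 5.89 to 7.26. Idi1 is uncertain, since its 2 probe sets put different groups highest, basal GFP- mutant cells in the set kept and control luminal Sca1+ cells in the other.

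**Figure D2:**
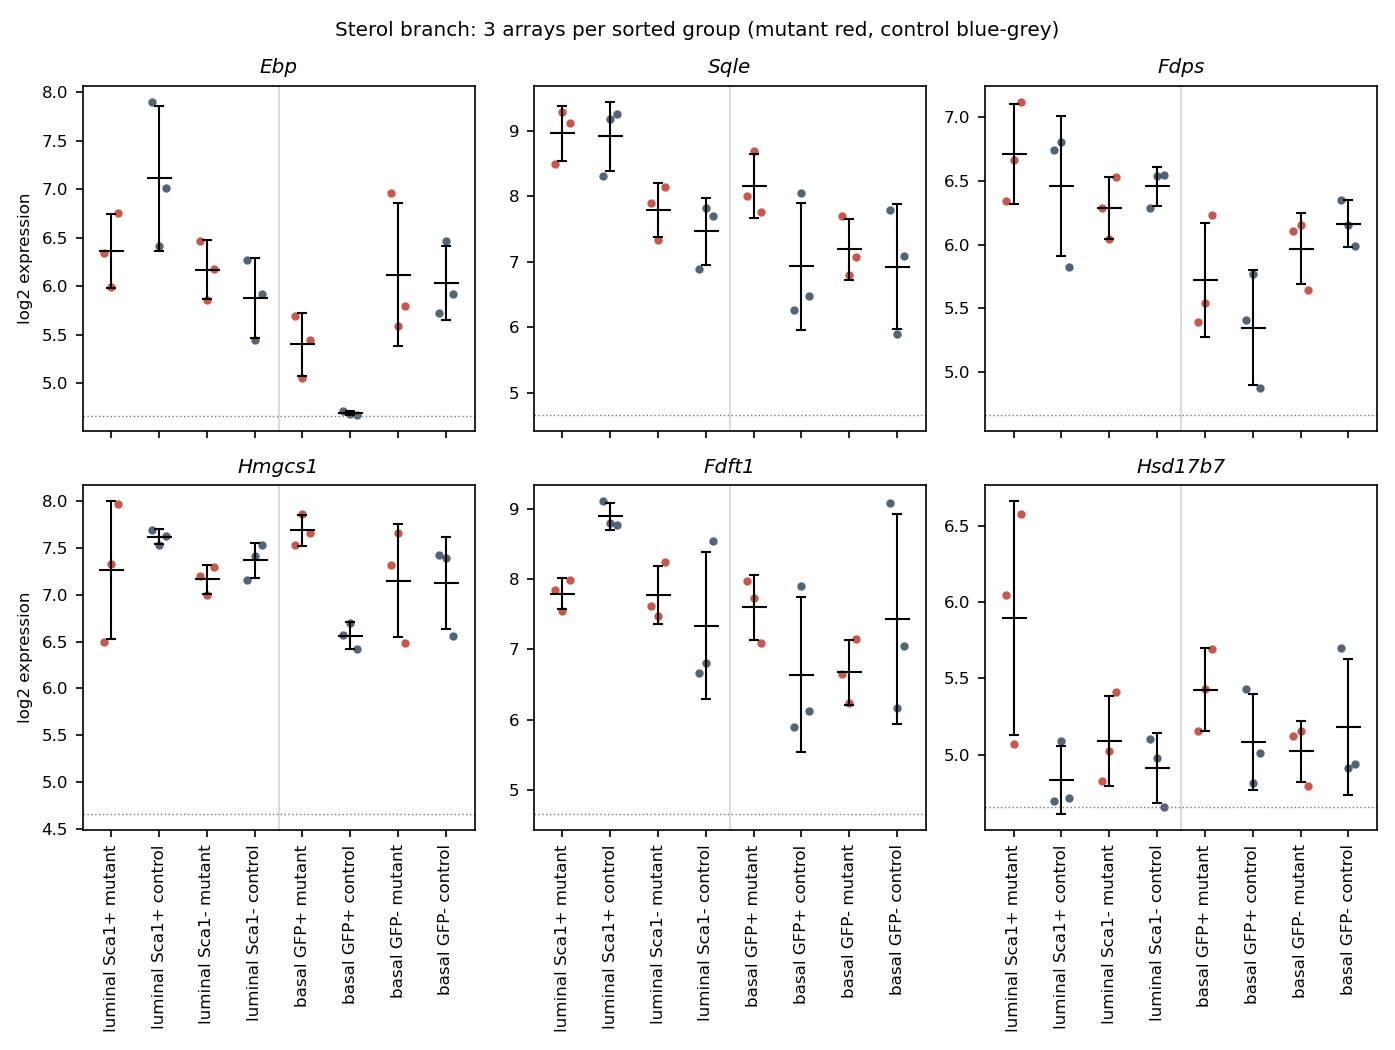
Log2 levels of 6 sterol genes in each of the 8 sorted groups, with points for the 3 arrays (mutant red, control blue-grey), mean and SD; the dotted line marks the dim limit of 4.66. Hmgcs1 shows its 3 mutant basal GFP+ arrays above the 3 control basal GFP+ arrays, and Sqle is highest in luminal Sca1+ cells of both genotypes.

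In the fatty acid branch, the elongase Elovl5 was higher in mutant cells of 2 populations. Elovl5 lengthens polyunsaturated fatty acids. Its log2 levels were 10.34, 9.40 and 10.17 in mutant luminal Sca1- arrays, against 8.13, 7.97 and 7.19 in control luminal Sca1- arrays. The log2 difference was 2.21 ± 0.25 (standard error, 3 arrays per group), or 4.62-fold, with an adjusted p of 0.000103. Elovl5 was the only member called in this gate, where 0.727% of all genes were called. In basal GFP+ cells its levels were 10.10, 10.04 and 10.04 in mutant arrays, against 8.87, 8.84 and 8.89 in control arrays. The difference was 1.19 ± 0.25, or 2.28-fold (adjusted p = 0.00669). Neither population's mutant and control arrays overlapped, and in basal GFP+ cells the arrays within each genotype were nearly equal.

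The basal GFP+ call of Elovl5 held in each of the 12 alternatives tried, with adjusted p between 0.00489 and 0.0276. The luminal Sca1- call held in 12 of 13 and was lost where only the compared groups entered the fit (adjusted p = 0.123). Mutant basal GFP+ arrays lay above control basal GFP- arrays too, by 0.89 (not called, adjusted p = 0.0592, and 1.13 without control array 1, where it passed). In luminal Sca1+ cells Elovl5 stood at 9.26, 8.77 and 9.03 in mutant arrays, against 8.41, 8.30 and 8.45 in control arrays, above them without overlap but not called (0.64, adjusted p = 0.452). In basal GFP- cells it stood at 9.39, 9.40 and 9.76 in mutant arrays, against 9.63, 8.78 and 9.08 in control arrays (0.35, adjusted p = 0.868). The 3 differences between these effects were themselves not called. The mutant effect in Sca1+ minus that in Sca1- cells was -1.57 ± 0.35 (adjusted p = 0.113, and -1.86 without mutant Sca1- array 2, where it passed), in a test that called 0.161% of all genes and 0 members (1 at an unadjusted p under 0.05).

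In control mice Elovl5 was lower in luminal than in basal cells. Control luminal Sca1- against control basal GFP- cells gave a log2 difference of -1.40 ± 0.25 (adjusted p = 0.000907), and control luminal Sca1+ against control basal GFP- cells gave -0.78 (adjusted p = 0.0462). The Sca1+ call was lost without any array of the pair other than basal array 2 (-0.82 to -0.55, adjusted p 0.0788 to 0.202). In mutant mice, luminal Sca1- cells, at a mean of 9.97, and basal GFP+ cells, at 10.06, differed by -0.09 (95% interval -0.61 to 0.44). Mutant luminal Sca1+ cells were lower than mutant basal GFP+ cells (-1.04, adjusted p = 0.00958, and 0.0564 without mutant Sca1+ array 2). They were also lower than mutant luminal Sca1- cells (-0.95, adjusted p = 0.0391), a call lost without Sca1- array 1 or 3 or Sca1+ array 2 or 3 (-0.95 to -0.76, adjusted p 0.122 to 0.21).

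**Figure D3:**
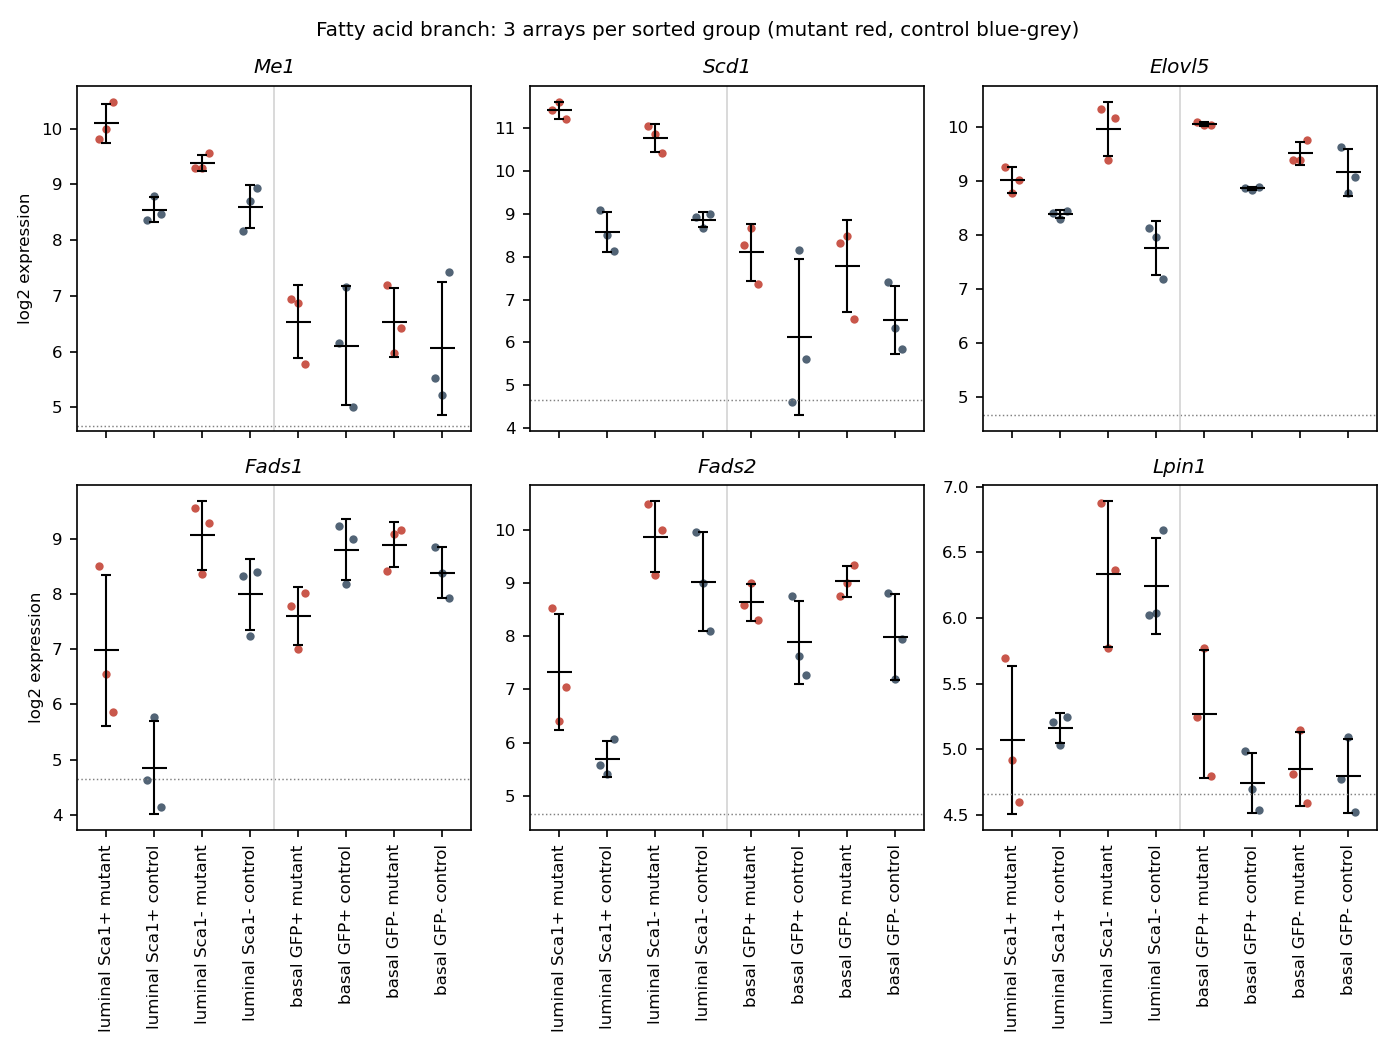
Log2 levels of fatty acid genes in each of the 8 sorted groups, with points for the 3 arrays (mutant red, control blue-grey), mean and SD; the dotted line marks the dim limit of 4.66. Elovl5 is higher in mutant than in control luminal Sca1- and basal GFP+ arrays, Me1 and Scd1 are higher in luminal than in basal cells, and Fads1 and Fads2 are lowest in control luminal Sca1+ cells.

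The desaturases Scd1 and Scd2, which put the double bond into palmitate and stearate, had large but variable differences between mutant and control. Scd1 log2 levels were 11.43, 11.62 and 11.21 in mutant luminal Sca1+ arrays, against 9.08, 8.50 and 8.14 in control luminal Sca1+ arrays. These groups lie well apart, and the difference of 2.84 ± 0.67 (7.17-fold) missed the threshold with an adjusted p of 0.0617. It passed when dim genes were omitted (adjusted p = 0.0301), with array weights (adjusted p = 0.00661) and without the control basal GFP+ arrays in the fit (adjusted p = 0.00631). No member was called in the Sca1+ comparison, where 0.777% of all genes were called, and 7 of 40 had an unadjusted p under 0.05.

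Scd1 stood at 11.04, 10.86 and 10.42 in mutant luminal Sca1- arrays, against 8.92, 8.67 and 9.0 in control luminal Sca1- arrays (difference 1.91 ± 0.67, adjusted p = 0.268), without overlap, and it passed where only the compared groups entered the fit. In basal GFP+ cells it stood at 8.26, 8.67 and 7.36 in mutant arrays, against 4.62, 8.16 and 5.61 in control arrays. The control arrays spread over more than the difference of 1.97 (adjusted p = 0.0593), and control array 2 lay among the mutant ones. Without it the difference was 2.99 and passed the test. The count of members called in basal GFP+ cells then became 6, with Elovl5, Hmgcs1, Scd1, Scd2, Sqle and Acacb, instead of 2. Calls over all genes rose from 2504 to 3979 of 19937 as well, so 6 of 40 is not above that share. Of the 6, Acacb, which is under the dim limit, was lower. Scd2 had levels of 7.96, 7.97 and 8.23 in mutant basal GFP+ arrays, against 6.36, 6.93 and 4.94 in control basal GFP+ arrays, above them without overlap (1.98 ± 0.68, adjusted p = 0.0608, and 2.40 without control array 2).

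Me1 and Scd1 were higher in luminal than in basal cells, most firmly in mutant mice. Me1, cytosolic malic enzyme, makes NADPH for fatty acid synthesis. Its log2 levels were 9.81, 10.00 and 10.48 in mutant luminal Sca1+ arrays and 9.30, 9.30 and 9.55 in mutant luminal Sca1- arrays, against 6.94, 6.88 and 5.78 in mutant basal GFP+ arrays. The differences were 3.56 ± 0.53 (11.8-fold, adjusted p = 0.000121) and 2.85 ± 0.53 (7.22-fold, adjusted p = 0.00152). Those comparisons called 5 and 3 members, where 9.72% and 7.86% of all genes were called. In control mice Me1 stood at 8.37, 8.79 and 8.47 in luminal Sca1+ arrays and 8.17, 8.70 and 8.93 in luminal Sca1- arrays, against 5.52, 5.22 and 7.42 in basal GFP- arrays. The differences were 2.49 (adjusted p = 0.0032) and 2.54 (adjusted p = 0.00372). These control calls were lost when both Me1 probe sets were averaged (adjusted p = 0.0771 and 0.136) and where only the compared groups entered the fit, whereas the mutant calls held in every alternative tried.

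Scd1 was higher in mutant luminal Sca1+ than in mutant basal GFP+ cells by 3.32 ± 0.67 (9.98-fold, adjusted p = 0.00239), a call that held in every alternative tried. In mutant luminal Sca1- cells it was higher than in mutant basal GFP+ cells by 2.67 (adjusted p = 0.0161), and without basal array 3 or Sca1- array 1 or 2 the call was lost (2.31 to 2.63, adjusted p 0.054 to 0.0903). In control mice the Sca1- gate was higher than basal GFP- cells, at 7.40, 6.34 and 5.84, by 2.33 (adjusted p = 0.0332), 1 of 4 members called where 9.83% of all genes were. Any omission but that of basal array 1 ended this call (1.99 to 2.43, adjusted p 0.069 to 0.122). Control luminal Sca1+ cells, at 9.08, 8.50 and 8.14, lay above control basal GFP- cells by 2.05, which was not called (adjusted p = 0.0522). Within the luminal lineage, Scd1 and Me1 were not called between Sca1+ and Sca1- cells of either genotype.

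Fads1 and Fads2, the delta-5 and delta-6 desaturases that make long polyunsaturated fatty acids, were low in Sca1+ luminal cells. Fads1 had log2 levels of 4.63, 5.78 and 4.15 in control luminal Sca1+ arrays, against 8.33, 7.24 and 8.40 in control luminal Sca1- arrays. Of the control Sca1+ arrays, 2 were under the dim limit, where a level is close to background, so no fold is given. The log2 difference was -3.14 ± 0.57 (adjusted p = 0.00308), and against control basal GFP- arrays it was -3.53 (adjusted p = 0.000255). Fads2 had levels of 5.58, 5.42 and 6.06 in control luminal Sca1+ arrays, against 9.96, 9.0 and 8.10 in control luminal Sca1- arrays. The difference was -3.34 ± 0.55 (10.1-fold, adjusted p = 0.00137), and against control basal GFP- arrays it was -2.30 (adjusted p = 0.00813). These were the 2 members called between control Sca1+ and Sca1- cells, where 3.69% of all genes were called.

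In mutant mice the contrast between the luminal gates was seen in Fads2, with levels of 8.52, 6.40 and 7.05 in Sca1+ arrays, against 10.48, 9.15 and 9.99 in Sca1- arrays. The difference was -2.55 ± 0.55 (adjusted p = 0.0125), 1 of 3 members called where 3.66% of all genes were, and it was lost without Sca1- array 1 or Sca1+ array 2 or 3 (-2.41 to -2.09, adjusted p 0.0635 to 0.0783). For Fads1 the levels were 8.51, 6.55 and 5.87 in mutant Sca1+ arrays, against 9.55, 8.35 and 9.28 in mutant Sca1- arrays. Mutant Sca1+ array 1 lay among the Sca1- arrays, and the difference of -2.08 had an adjusted p of 0.052 (-2.85 without that array, where it passed). Between mutant and control Sca1+ cells, Fads1 was above without overlap (2.12 ± 0.57, adjusted p = 0.133, and 2.68 without mutant array 3, where it passed), and so was Fads2 (1.64 ± 0.55, adjusted p = 0.306). In basal GFP+ cells Fads1 stood at 7.78, 7.0 and 8.01 in mutant arrays, against 9.24, 8.17 and 8.99 in control arrays (-1.20, adjusted p = 0.158).

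Lpin1 and Acly complete the called fatty acid genes. Lpin1, a phosphatidate phosphatase of triglyceride synthesis, was highest in luminal Sca1- cells of both genotypes. Its log2 levels were 6.02, 6.04 and 6.67 in control luminal Sca1- arrays, against 4.77, 5.09 and 4.52 in control basal GFP- arrays (1.45 ± 0.31, adjusted p = 0.00411), a call that held in every alternative tried. In mutant mice they were 5.69, 4.92 and 4.59 in luminal Sca1+ arrays, against 6.88, 5.77 and 6.37 in luminal Sca1- arrays (-1.27, adjusted p = 0.0248). This call was lost without Sca1- array 1 or 3 or Sca1+ array 2 or 3 (-1.26 to -1.0, adjusted p 0.0743 to 0.155). Mutant Sca1- cells were also higher than mutant basal GFP+ cells, at 5.24, 5.77 and 4.80, by 1.07 (adjusted p = 0.0382) with arrays that overlap slightly, and that call was lost without array 1 or 3 of either group (0.80 to 1.05, adjusted p 0.105 to 0.203). Acly, ATP citrate lyase, which makes cytosolic acetyl-CoA, was called in mutant luminal Sca1+ arrays, at 8.21, 7.29 and 8.09, against mutant basal GFP+ arrays, at 6.42, 7.16 and 6.76 (1.09 ± 0.32, adjusted p = 0.0379). It was lost without array 1 or 3 of either group (0.90 to 1.07, adjusted p 0.0998 to 0.169).

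The enzymes that build the chain itself were not called in any pair. Fasn, fatty acid synthase, had group means between 6.86 and 7.95. Its log2 difference between mutant and control was 0.43 in luminal Sca1+, 0.33 in luminal Sca1-, 0.31 in basal GFP+ and 0.31 in basal GFP- cells, with adjusted p from 0.442 to 0.912. Acaca, acetyl-CoA carboxylase, differed by 0.81 in basal GFP+ cells without overlap of the arrays (adjusted p = 0.0628), and passed the test at 0.99 when its 2 probe sets were averaged. Elovl6, which elongates palmitate, differed by 1.20 in basal GFP+ cells (adjusted p = 0.108) and by 1.08 in luminal Sca1- cells (adjusted p = 0.429). Elovl1 had group means between 8.70 and 9.88, and Acsl4 between 6.56 and 7.47, with no call.

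Counted over the branch, most fatty acid genes had positive differences between mutant and control, few of which passed the test. Of 19, 16 had a positive log2 difference in luminal Sca1+ cells (49.8% of all genes did) and 18 in luminal Sca1- cells (41.1%). In basal GFP+ cells 15 did (34.9%), and in basal GFP- cells 13 did (42.5%). The median log2 difference was 0.24 in luminal Sca1+ cells and 0.44 in luminal Sca1- cells, where that of all genes was -0.00 and -0.04. It was 0.31 in basal GFP+ cells, where that of all genes was -0.10, and 0.06 in basal GFP- cells, where that of all genes was -0.03. The mean log2 level of the branch per array was 6.59 to 6.99 in mutant luminal Sca1+ arrays, against 6.14 to 6.21 in control ones. It was 6.79 to 7.27 in mutant luminal Sca1- arrays, against 6.16 to 6.58 in control ones, and 6.37 to 6.56 in mutant basal GFP+ arrays, against 5.66 to 6.23 in control ones. With dim genes left out, the branch median was 0.58 in luminal Sca1+, 0.81 in luminal Sca1-, 0.75 in basal GFP+ and 0.35 in basal GFP- cells. The median of all genes without the dim ones is not given. A larger rise of the branch therefore cannot be read from these values. The counts and medians describe the list, whose members share arrays, and call nothing particular to it.

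**Figure D4:**
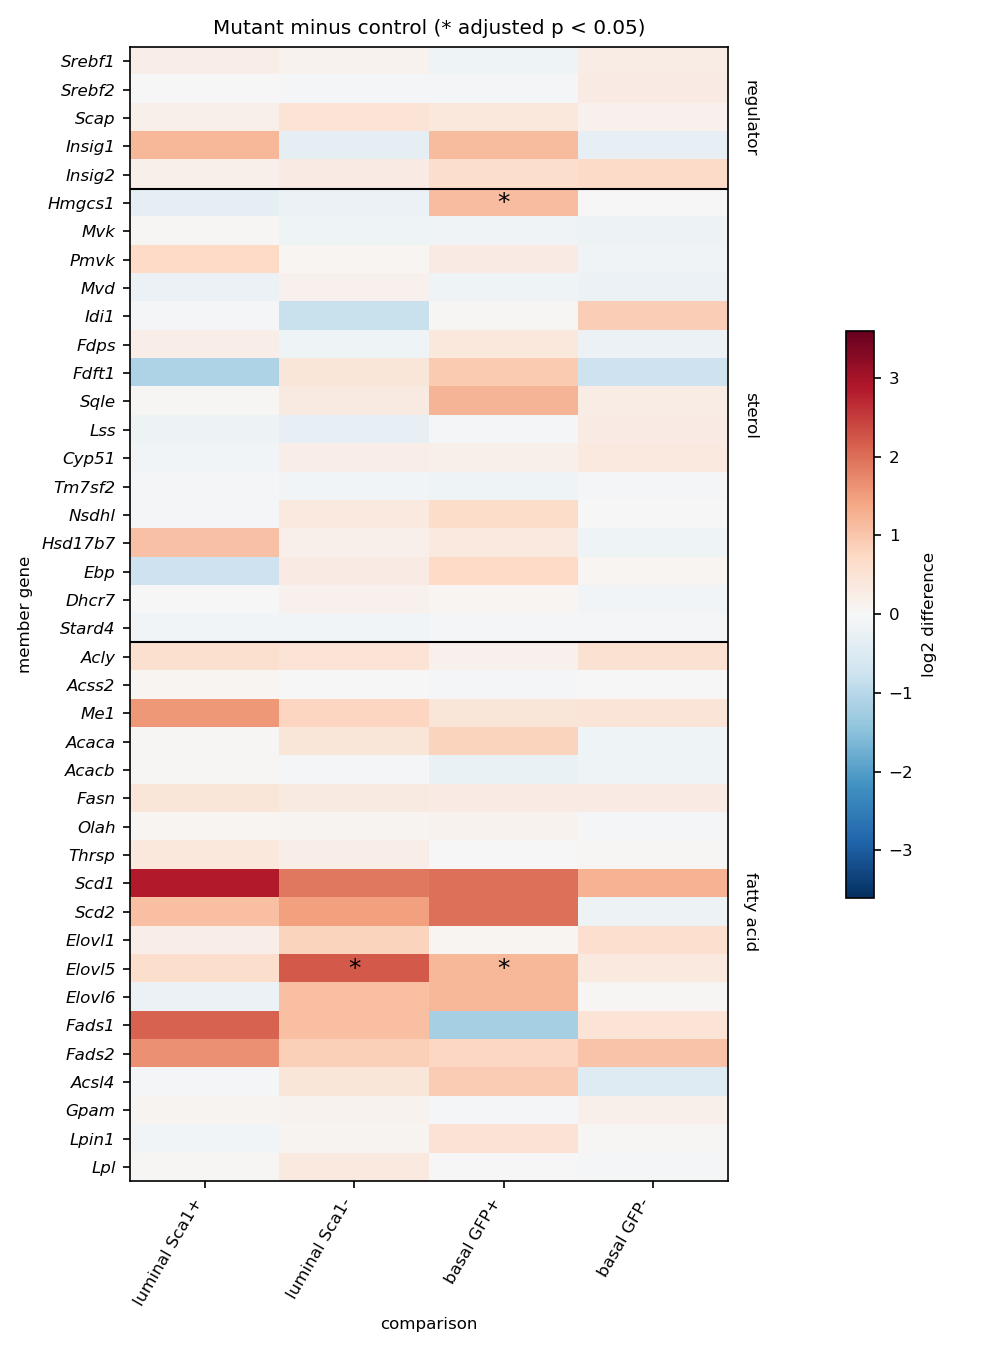
Log2 difference between mutant and control for the 40 measured genes (down the page, by branch) in the 4 sorted populations (across), with red for higher in mutant and an asterisk for an adjusted p under 0.05. The 3 calls are Elovl5 in luminal Sca1- and basal GFP+ cells and Hmgcs1 in basal GFP+ cells, and most fatty acid genes are tinted red.

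In basal GFP- cells, where 0.0602% of all genes were called between mutant and control, 0 of 40 members were, and none had an unadjusted p under 0.05. Mutant basal GFP+ against control basal GFP- cells gave 0 members (4 at an unadjusted p under 0.05) where 3.22% of all genes were called. GFP+ against GFP- basal cells gave 0 members in mutant mice (3 at an unadjusted p under 0.05, with 2.51% of all genes called). In control mice it gave 0 as well (4 at an unadjusted p under 0.05, with 1.25% of all genes called). In control basal cells Ebp stood at 4.71, 4.68 and 4.67 in GFP+ arrays, against 5.73, 6.46 and 5.92 in GFP- arrays (-1.35, adjusted p = 0.0778). The mutant effect in basal GFP+ minus that in basal GFP- cells, and that in luminal Sca1- minus that in basal GFP+ cells, called 0 members, where 1.07% and 1.03% of all genes were called and 6 and 3 members had an unadjusted p under 0.05.

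**Figure D5:**
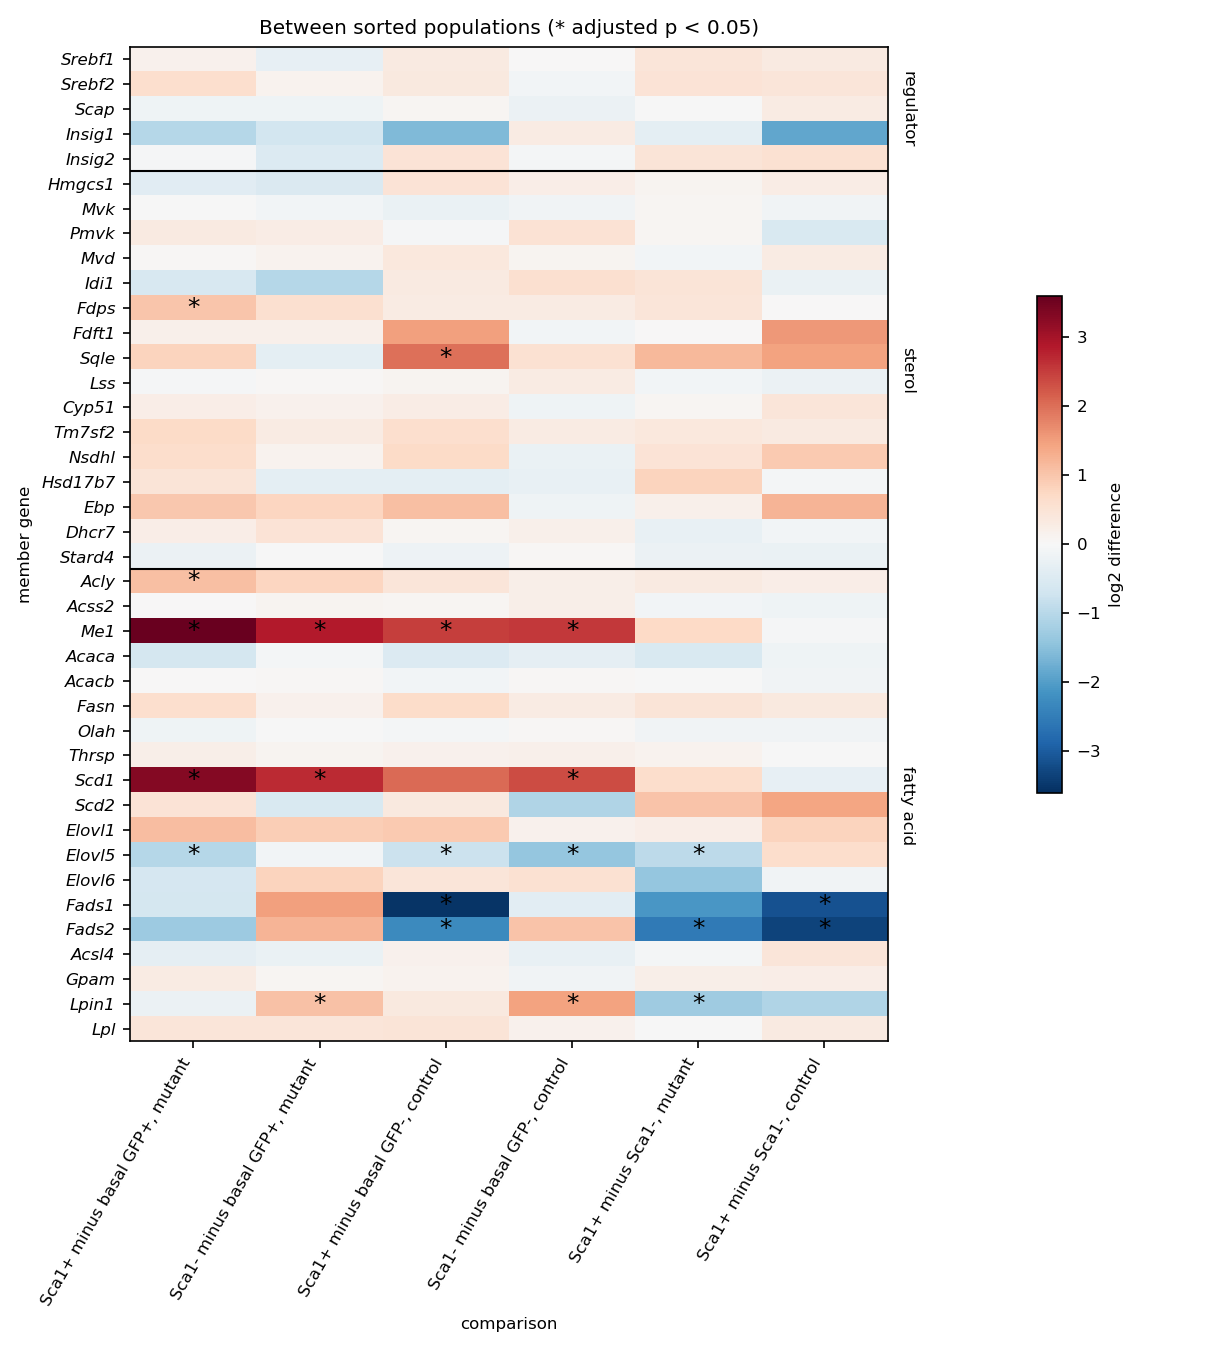
Log2 differences between populations of a genotype (across) for the 40 measured genes (down the page, by branch), with red for higher in the population named before "minus" and an asterisk for an adjusted p under 0.05. Me1 and Scd1 are red in the luminal against basal columns, and Fads1 and Fads2 are blue in the Sca1+ against Sca1- columns.

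Other genes of lipid metabolism were read from lists of related steps. Of 6 other sterol synthesis genes, 1 was called between mutant and control, in luminal Sca1- cells, where 0.727% of all genes were: Msmo1, a C4 methyl sterol oxidase, had log2 levels of 7.06, 7.60 and 7.52 in mutant luminal Sca1- arrays, against 5.16, 5.19 and 4.88 in control luminal Sca1- arrays. The difference was 2.32 ± 0.48 (adjusted p = 0.0247). It was also higher in control luminal Sca1+ than in control basal GFP- cells (2.14, adjusted p = 0.00466), where its mean of 4.26 was under the dim limit. Of 10 genes of sterol regulation, uptake and export, 2 were called in basal GFP+ cells, where 12.6% of all genes were, both higher in mutant cells: Vldlr and Lrp8, which are receptors of the lipoprotein family. Vldlr stood at 6.76, 7.0 and 7.42 in mutant basal GFP+ arrays, against 4.26, 4.27 and 4.92 in control basal GFP+ arrays (2.58 ± 0.19, adjusted p = 1.9e-07). The control means of Vldlr (4.48) and Lrp8 (4.37) were under the dim limit, so the sizes of their differences are uncertain. Vldlr was higher against control basal GFP- cells too (2.20, adjusted p = 1.42e-06), and its mutant effect was larger in GFP+ than in GFP- basal cells (difference of effects 2.49, adjusted p = 6.83e-05).

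Of 17 further fatty acid synthesis genes, 3 were called between mutant and control basal GFP+ cells, near the share of all genes (12.6%): Elovl4 and Tecr higher, Mid1ip1 lower. Elovl4, the elongase of very long chains, stood at 8.83, 8.45 and 8.81 in mutant basal GFP+ arrays, against 4.75, 6.12 and 4.35 in control basal GFP+ arrays (3.63 ± 0.43, adjusted p = 4.92e-05). It stood at 6.92, 7.55 and 5.48 in mutant basal GFP- arrays, against 8.01, 8.19 and 7.52 in control basal GFP- arrays. Control GFP+ cells were thus lower than control GFP- cells (-2.83, adjusted p = 0.00713), and mutant GFP+ cells were higher than mutant GFP- cells (2.05, adjusted p = 0.0122). The difference of the mutant effects was 4.88 (adjusted p = 0.000235). Between mutant basal GFP+ and control basal GFP- cells Elovl4 differed by 0.80 (not called, adjusted p = 0.379). Luminal cells had Elovl4 at means of 3.79 to 4.30, under the dim limit.

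Of 18 genes of triglycerides and lipid droplets, 1 was called between mutant and control basal GFP+ cells, where 12.6% of all genes were. It was Plin2, which coats lipid droplets, higher in mutant arrays, at 8.75, 7.60 and 7.41, against 5.81, 6.59 and 6.03 in control ones (1.78, adjusted p = 0.0324). Plin2 was lower in luminal Sca1+ than in luminal Sca1- cells, by -2.42 in mutant mice (adjusted p = 0.00964) and by -2.56 in control mice (adjusted p = 0.006). Gpat3, a glycerol phosphate acyltransferase, was lower in mutant than in control luminal Sca1+ cells, at 5.39, 5.12 and 5.40 against 6.39, 7.30 and 6.20 (-1.33, adjusted p = 0.017). It was 1 of the 18 called there, where 0.777% of all genes were. The mutant effect on Gpat3 differed between Sca1+ and Sca1- cells (-1.99, adjusted p = 0.0364), in a test that called 0.161% of all genes. Of 13 genes of fatty acid oxidation, 0 were called by limma in any comparison of mutant with control. The largest share of all genes called in these was 12.6%, in basal GFP+ cells, where 3 of the 13 had an unadjusted p under 0.05.

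Several markers moved with these results, and their part in them was not tested. The mean log2 level over 8 milk genes was 6.66 to 8.64 in mutant luminal Sca1+ arrays, against 4.34 to 4.79 in control ones. It was 9.04 to 9.86 in mutant luminal Sca1- arrays, against 6.91 to 7.05 in control ones, and 6.58 to 8.14 in mutant basal GFP+ arrays, against 4.50 to 4.55 in control ones. The mean over 8 luminal progenitor genes was 7.17 to 8.78 in mutant luminal Sca1+ arrays, against 6.11 to 6.54 in control ones. It was 9.64 to 10.07 in mutant luminal Sca1- arrays, against 9.13 to 9.55 in control ones, and 7.36 to 7.64 in mutant basal GFP+ arrays, against 5.56 to 6.05 in control ones. In basal GFP- cells, where no member was called, the means over milk genes (4.98 to 5.77 in mutant arrays, against 4.50 to 4.56 in control ones) and over luminal progenitor genes (6.41 to 7.0 in mutant arrays, against 5.86 to 6.33 in control ones) did not overlap between the genotypes either. Gene by gene, 2 of the 8 milk and 3 of the 8 luminal progenitor genes lay above control without overlap there, and 0 of either list were called. The share of all genes without overlap is not given, so these counts cannot be set against it.

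The mean over 6 hormone-sensing genes was 5.80 to 6.65 in mutant luminal Sca1- arrays, against 6.72 to 7.58 in control ones. The mean over the basal list was higher in mutant luminal Sca1- arrays, as given above, with 3 of its 10 genes called, in the gate where Elovl5 rose. All of the 10 were above the dim limit there in both genotypes. The mean over 7 fibroblast genes was 6.34 to 6.55 in mutant basal GFP+ arrays, against 5.88 to 6.04 in control ones, with 2 of the 7 under the dim limit in each. It was 4.76 to 4.98 in mutant luminal Sca1- arrays, against 5.21 to 5.27 in control ones. Both shifts lean on Dcn, which encodes the matrix proteoglycan decorin, and do not stand for the list. Dcn was higher in mutant basal GFP+ cells (4.30, adjusted p = 0.000901) and lower in mutant luminal Sca1- cells (-3.29, adjusted p = 0.0284). Of the 7 fibroblast genes, 2 lay above and 1 below control without overlap in basal GFP+ cells. In luminal Sca1- cells 1 lay above and 1 below. These counts too lack the share of all genes without overlap. Signal of fat cells was low: the mean over 7 adipocyte genes lay between 4.10 and 4.53 in all arrays, and 5 to 7 of the 7 were under the dim limit in each group. Of 10 leukocyte genes, 9 were under it in every group. On this list, Cd68 was called higher in mutant than in control luminal Sca1- cells (1.52, adjusted p = 0.0431), where 0.727% of all genes were called. Csf1r was called lower in mutant basal GFP+ cells (-0.30, adjusted p = 0.0229), where 12.6% were. The part of these 2 genes in the results was not tested.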

How the data were processed

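Single-colour Affymetrix arrays measured amplified RNA of 250 sorted cells in 24 samples, 8 groups of 3. The authors deposited normalized log2 values per probe set, between 2.59 and 13.5, and affy is named per the submitters' processing notes. The background correction, normalization and summarization are not given in the sources used here. Array medians lay between 4.39 and 4.55. Arrays give no read depth, and their number limits the precision.

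The platform annotation gave 21640 of the 34760 probe sets a lone symbol, gave 1321 several and listed none for 11799. Those with a lone symbol gave 19937 genes, each through the probe set with the highest mean. A single limma fit (version 3.58.1, R 4.3.3) of the 8 group means, with 16 residual degrees of freedom and empirical Bayes moderation, gave 13 pairwise comparisons, 3 differences of mutant effects and the F test. P-values are two-sided and Benjamini-Hochberg adjusted over all genes within each comparison, and a gene was called at an adjusted p under 0.05. Shares of all genes called are at that threshold. Counts at an unadjusted p under 0.05, and counts of genes without overlap of the arrays, have no such share beside them and are descriptive. Standard errors and 95% intervals are from this fit. The fit was tested on simulated data. Comparisons that use the same control or mutant arrays are not independent of each other.

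The members and the gene lists were chosen with earlier results of these data known. Named genes were, per branch, up to 6 members with the smallest F-test p, and up to 4 called members per comparison. From the other lists, up to 3 called genes per comparison qualified. Further members given with values, among them the regulators, Scd2, Acaca, Elovl6 and Fasn, were chosen after their values were seen. The alternatives were quantile normalization, leaving out dim genes, array weights, the replicate number as a block, averaging probe sets, fitting only the compared groups, leaving out the control basal GFP+ arrays, and leaving out each array in turn.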

Additional observations from a re-analysis of the deposited data

How the results depend on the processing

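Of the 25 calls of members, 8 held under every alternative, 17 were lost under at least 1, and 0 reversed. The 8 were Elovl5 between mutant and control basal GFP+ cells, Fads1 and Fads2 between control Sca1+ and basal GFP- cells, Fads2 between the control luminal gates, Lpin1 between control Sca1- and basal GFP- cells, Me1 in both mutant luminal gates against basal GFP+ cells, and Scd1 in the Sca1+ one. The number of members called stayed within 1.5 times in 187 of 222 settings, and 13 of 444 branch medians moved beyond the spread between arrays. The 187 include comparisons that stayed at 0 members, and do not ask whether the same genes were called. In Sca1- cells the fit of only the compared groups kept 1 call between mutant and control, but of Scd1 in place of Elovl5.

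Quantile normalization left 1 member called instead of 2 between mutant and control basal GFP+ cells, without Hmgcs1. Calls over all genes there fell from 2504 to 1213 of 19937. Leaving out dim genes gave 1 instead of 0 in the mutant Sca1+ comparison and between mutant basal GFP+ and control basal GFP- cells, and 4 instead of 2 between the control luminal gates. Over all genes kept, these comparisons called 130, 584 and 739 of 9969. This setting removes dim genes from the adjustment and from the medians by construction. Array weights gave 1 instead of 0 in the same mutant comparisons, and 1 instead of 0 for the mutant effect in Sca1+ minus Sca1- cells (Elovl5). Over all genes they called 221, 850 and 52 of 19937. Without the control basal GFP+ arrays in the fit, the Sca1+ comparison had 1 (Scd1), with 157 of 19937 genes called. Fits of only the compared groups have fewer residual degrees of freedom. They gave 2 instead of 4 for control Sca1- and 2 instead of 5 for control Sca1+ against basal GFP- cells, 1 instead of 2 between the control luminal gates and 0 instead of 3 between the mutant ones, and 1 instead of 0 (Hmgcs1) for the mutant effect in Sca1- minus basal GFP+ cells. Over all genes these fits called 1045, 1692, 311, 319 and 145 of 19937, in that order.

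Leaving out 1 array at a time gave 1 to 6 members called between mutant and control basal GFP+ cells, 0 to 1 in Sca1+ cells, 0 to 1 between mutant basal GFP+ and control basal GFP- cells, and 1 in Sca1- cells. In the comparison of mutant with control basal GFP+ cells, calls over all genes then ran from 1034 to 3979 of 19937. They ran from 409 to 632 between mutant basal GFP+ and control basal GFP- cells, and from 110 to 149 in Sca1- cells. Against basal cells leaving out 1 array gave 3 to 4 for control Sca1-, 4 to 7 for control Sca1+, 1 to 3 for mutant Sca1- and 3 to 5 for mutant Sca1+ cells. Over all genes the first 3 of these called 1469 to 1744, 2061 to 2374 and 1154 to 1280 of 19937. The mutant Sca1+ fit with 3 members called 1560. Between the luminal gates leaving out 1 array gave 2 to 3 in control and 0 to 4 in mutant mice, and 0 to 1 for the mutant effect in Sca1+ minus Sca1- cells. Over all genes the control gates then called 458 to 582 of 19937, and the mutant fit with 0 members called 428. Omission of 1 array also added calls that the report does not give. In control Sca1+ against basal GFP- cells these were Fdft1 (2.29), Fasn (0.92) and Scd1 (2.48) without basal array 1, and Ebp (1.42) and Lpl (0.70) without Sca1+ array 2. Between the control luminal gates they were Nsdhl (2.08) without Sca1- array 3 and Ebp (1.58) without Sca1+ array 2. Acly (1.15) was added in mutant Sca1- against basal GFP+ cells without Sca1- array 2, and Fads2 (-1.91) in mutant Sca1+ against basal GFP+ cells without Sca1+ array 1. Without mutant Sca1+ array 2, Hsd17b7 was added against basal GFP+ (0.89) and Sca1- cells (1.22). The cause of these shifts was not tested.

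The groups share replicate numbers, and the labels do not say that a number marks a sorting. The pairing was not borne out by the rule used, which asks for every correlation over 0.1: over 84 same-number pairs of arrays the correlation of deviations from group means ran from -0.0823 to 0.185, with 6 over 0.1. As a hint from the data, the mean correlation with arrays of the other groups was highest for the own replicate number in 20 of 24 arrays. Whether gates of 1 pool share a number was not tested. With the replicate number as a block, 4 members instead of 2 were called between mutant and control basal GFP+ cells (Scd1 and Scd2 added), 1 instead of 0 in Sca1+ cells (Scd1), 1 instead of 0 between mutant basal GFP+ and control basal GFP- cells (Elovl5) and 1 instead of 0 between GFP+ and GFP- control basal cells (Ebp). Over all genes these comparisons called 2350, 164, 687 and 254 of 19937 with the block. The block also added Ebp and Scd1 in control Sca1+ against basal GFP- cells, Ebp between the control luminal gates and Fads1 between the mutant ones. The Acly call between mutant Sca1+ and basal GFP+ cells was lost under the block (adjusted p = 0.0516, over alternatives from 0.0136 to 0.169), and no other of the 25 was.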
